A study of Mus musculus with 8 samples.

Results

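The genes examined here encode the core subunits of Polycomb repressive complex 1 (PRC1), namely the RING-finger ligases Ring1 and Rnf2, the Pcgf proteins Bmi1, Pcgf1, Pcgf2, Pcgf3, Pcgf5 and Pcgf6, and the paralogs Rybp and Yaf2. They were chosen by name, as the probes other than controls whose gene name on the array is one of these 10 symbols. All 10 genes were on the array, out of 36406 gene names, with 16 of its 55681 probes. The cells were E14Tg2A.4 mouse embryonic stem (ES) cells, an established line without a transgene in this experiment. Of the 2 conditions, untreated cells were the control, and RA cells had received 1 µM all-trans retinoic acid in medium without leukemia inhibitory factor and were collected after 72 h, a treatment that the study used to start neuronal differentiation. RA and the removal of the factor cannot be told apart by this design. Each condition had 4 biological replicates, whose total RNA was read on 1-colour Agilent arrays, 1 array per replicate. Levels are given as the log2 of the intensity of a spot relative to the 75th percentile of its array, and they describe RNA, not protein.

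PRC1 places ubiquitin on histone H2A through Ring1 or Rnf2 (Ring1b), and each complex holds 1 Pcgf protein beside the ligase. In canonical PRC1 the Pcgf protein is Bmi1 (Pcgf4) or Pcgf2 (Mel18), and a Cbx protein that reads trimethylated H3K27 and a Phc protein complete the complex. In variant PRC1 Rybp or Yaf2 takes the place of the Cbx protein. The variant complexes are sorted by Pcgf1, which works with Kdm2b and Bcor, by Pcgf3 or Pcgf5, which work with Auts2 and casein kinase 2, and by Pcgf6, which works with L3mbtl2, E2f6, Mga and Max. Rybp and Yaf2 can also be part of complexes with Bmi1 or Pcgf2. In ES cells PRC1 keeps developmental genes silent.

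Of the 16 probes, 15 were well above background on all 8 arrays, and the exception was a second probe for Pcgf3. For 5 genes the array had 1 probe, for 4 genes it had 2, and for Pcgf5 it had 3. Their positions are on mm9, and the transcripts are those the array names, since no mm9 gene models were used. Most of the probes lie in a single block of the genome. The probe of Pcgf1 (A_66_P121656, chr6:83030111-83030579, plus strand) and the dimmer probe of Pcgf2 (A_51_P317740, chr11:97553207-97553380, minus strand) cover more genome than their 60 bases, so both cross an intron and can be read only from spliced RNA or from a processed copy of it. These 2 are shown whole because each crosses an intron, and neither passed the test for a change after RA.

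Pcgf1 probe A_66_P121656: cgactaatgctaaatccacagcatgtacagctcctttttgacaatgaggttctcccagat
Pcgf2 probe A_51_P317740: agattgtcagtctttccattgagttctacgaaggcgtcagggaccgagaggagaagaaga

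RNA was amplified from an oligo-dT primer, so a probe reads what lies near a poly(A) tail, and AATAAA or its variant ATTAAA is the signal that precedes the cleavage site. Either hexamer was present in 5 of the 16 probes. The last 30 bases of the probes for Rybp (A_55_P2003966, chr6:100178610-100178669, minus strand) and Yaf2 (A_51_P292754, chr15:93115295-93115354, and A_55_P2159830, chr15:93114341-93114400, both minus strand) and of the brighter Pcgf2 probe (A_55_P1968153, chr11:97551160-97551219, minus strand) are shown because the results turn on these genes, and capitals mark the hexamers. The brighter probe of Yaf2 and that of Pcgf2 held a hexamer, and the Rybp probe and the second Yaf2 probe showed none in this stretch. The match is a description of the letters, and use of these sites was not tested.

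Rybp probe A_55_P2003966: tatcattttcctgctttaaatagaaatgtc
Yaf2 probe A_51_P292754: gATTAAAtaggaagttgttATTAAATAAAg
Yaf2 probe A_55_P2159830: gctagttgtgaatagtttattgcatacagt
Pcgf2 probe A_55_P1968153: tgggttttataAATAAAtctatatatatat

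On the arrays between 56.7% and 62.7% of spots were well above background and no spot was saturated. Replicate arrays correlated at 0.979 to 0.994 with each other. There were 2 slides, and each held 2 untreated and 2 RA arrays. All 7 ES cell markers fell after RA, and the log2 of their summed level was between 8.09 and 8.55 on untreated arrays and between 3.39 and 5.09 on RA arrays. All 5 RA response genes rose, although Hoxb1 was not well above background on any untreated array. Of the lineage markers, all 5 of primitive endoderm rose (summed level 0.25 to 1.13 in untreated cells and 4.42 to 5.19 after RA), as did 3 of the 4 fibroblast genes (0.15 to 1.04 and 4.06 to 5.12). Of the 4 neural markers on the array Nes rose, Tubb3 fell, and Pax6 and Sox1 were not called, with a summed level of 2.58 to 3.25 and 3.36 to 3.55. Of the 5 mesoderm genes Meox1 rose and Mixl1, which was not well above background on any array, was called lower (0.96 to 1.26 and 0.91 to 1.36). The RA cells are therefore called by their treatment and not by a lineage, and the part of these lineage shifts in the results for PRC1 was not tested. In bulk RNA fewer cells that express a gene and less RNA per cell cannot be told apart.

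After 72 h of RA most genes of the PRC1 core differed in RNA level from untreated cells, and Yaf2 and its paralog Rybp went in opposite directions. Yaf2 rose 4.91-fold and Rybp fell 2.99-fold. Bmi1 rose 2.56-fold while Pcgf2 did not pass the test. Among the Pcgf proteins of variant PRC1, Pcgf5 rose 2.49-fold and Pcgf3 2.47-fold, Pcgf6 fell 1.60-fold and Pcgf1 was not called, and both ligases rose, Ring1 1.75-fold and Rnf2 1.73-fold. In all, 6 of the 10 genes were called higher and 2 lower, where a call needed an adjusted p under 0.05 by limma and a change over 1.5-fold. Among the brightest probes of the 20404 genes detected on all 8 arrays the same rule called 18.1% higher and 27.5% lower, or 45.6% in either direction. Over all probes it called 12.9% higher and 21.6% lower, or 34.6% in either direction. The conditions did not overlap for 6 members that were higher and 3 that were lower after RA, against 21.0% and 33.9% of the detected genes, or 55.0% in either direction. The median log2 fold change of the members was 0.80. That of all probes was -0.28 with this scaling and -0.00 after quantile normalization, which also moved the share of calls that were higher from 37.4% to 48.4%. After that normalization 20.0% of the detected genes were called higher and 21.7% lower. The members were chosen with results of these arrays in view, so their count stands as a description.

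**Figure D1:**
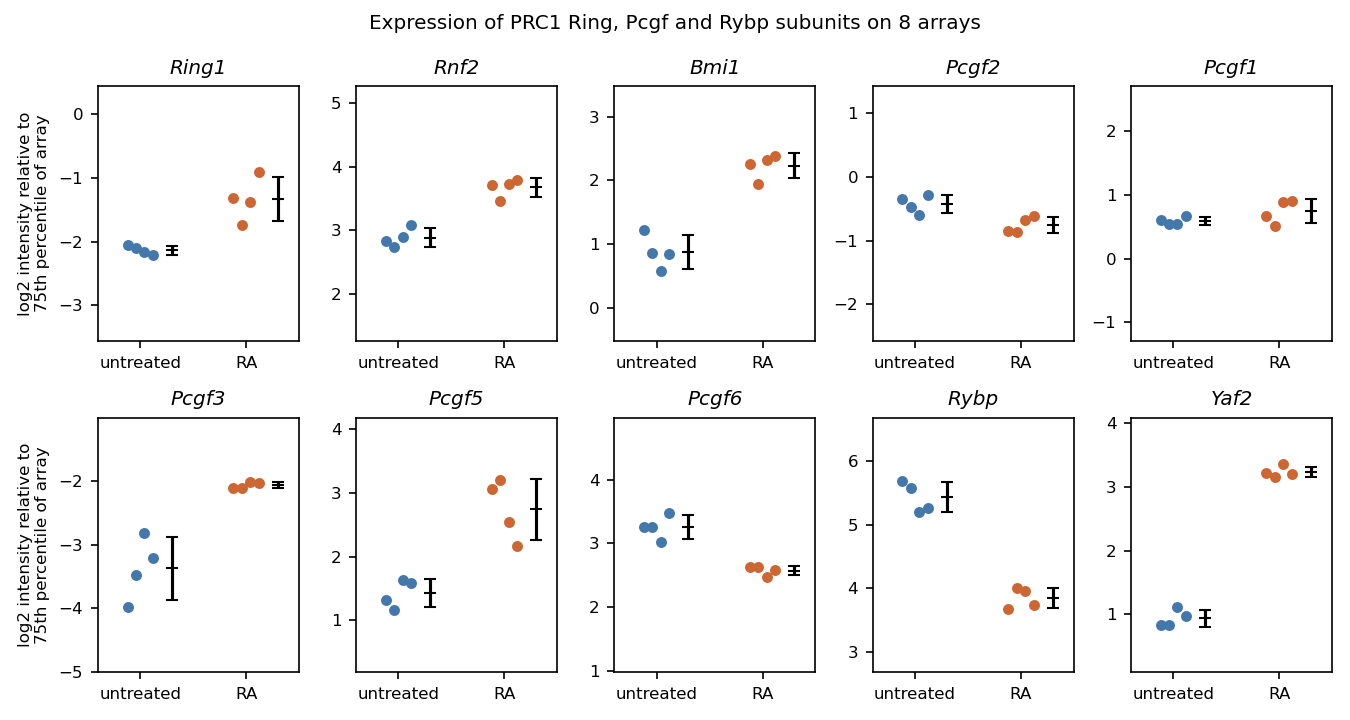
Level of each of the 10 genes on the 8 arrays, as log2 intensity relative to the 75th percentile of the array, for the brightest probe of the gene. Points are replicates 1 to 4 from left to right, bars are the mean ± SD (n = 4), and every panel spans the same range of log2 units, so that the separation of Yaf2 and Rybp can be compared with the overlap in Pcgf1.

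The catalytic subunits Ring1 and Rnf2 both rose. Ring1 (A_51_P455266, NM_009066, chr17:34158164-34158223, minus strand) was at -2.06, -2.11, -2.17 and -2.22 in untreated replicates 1 to 4 and at -1.32, -1.74, -1.37 and -0.90 in RA replicates 1 to 4. Every RA array was above every untreated array, and the RA arrays were the more scattered (SD 0.34 against 0.07). The change was 0.80 on the log2 scale (SE 0.19, adjusted p = 0.00849 by limma). Its size depends on the processing. It was 0.87 after quantile normalization and 0.62 after another background correction (normexp) with the same scaling, close to the 1.5-fold threshold. After normexp with quantile normalization and with the deposited log2 values it was 0.69, and Ring1 was called in each of these. Rnf2 (A_51_P382253, NM_011277, chr1:153316987-153317046, minus strand), the main H2A ligase of ES cells, was at 2.84, 2.74, 2.89 and 3.09 in untreated cells and at 3.72, 3.46, 3.73 and 3.79 after RA. The conditions did not overlap here either, with a change of 0.79 (SE 0.15, adjusted p = 0.00262 by limma). With 2 arrays against 2 on a single slide the changes were 1.00 and 0.61 for Ring1 and 0.89 and 0.68 for Rnf2 on slides 1 and 2, and none of these 4 passed the adjusted p of limma (0.0742 to 0.227).

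Of the Pcgf proteins of canonical PRC1, Bmi1 rose. Its brighter probe (A_55_P2170335, NM_007552, chr2:18607531-18607590, plus strand) was at 1.22, 0.85, 0.57 and 0.85 in untreated replicates and at 2.26, 1.94, 2.32 and 2.39 after RA. All RA arrays were above all untreated arrays. The change was 1.36 (SE 0.18, adjusted p = 0.000421 by limma). The second probe (A_52_P39157, chr2:18607987-18608046), which begins 396 bases downstream of the end of the first, gave 1.61 (adjusted p = 0.000379 by limma), and within slides 1 and 2 the brighter probe gave 1.43 and 1.28.

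Pcgf2, the alternative to Bmi1 in canonical PRC1, did not pass the test. The brighter probe was at -0.34, -0.47, -0.60 and -0.29 in untreated replicates and at -0.85, -0.86, -0.68 and -0.61 after RA. The values did not overlap, but the highest RA array and the lowest untreated array nearly touched. The difference was -0.33 (95% interval -0.64 to -0.01, adjusted p = 0.100 by limma), which is -0.05 relative to the median of all probes. The adjusted p was 0.0478 after quantile normalization, with a difference of -0.31, still under 1.5-fold. The second probe, the one that crosses an intron, was at -1.20, -0.96, -0.83 and -0.69 and at -0.99, -1.13, -0.64 and -0.75. Those values overlapped, with a difference of 0.04 (95% interval -0.35 to 0.44, adjusted p = 0.860 by limma), so the 2 probes differed in sign.

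The Pcgf proteins of variant PRC1 went separate ways. Pcgf5 was at 1.31, 1.17, 1.63 and 1.59 in untreated replicates and at 3.05, 3.20, 2.55 and 2.16 after RA (A_55_P1996171, NM_029508, chr19:36530623-36530682, plus strand). All RA arrays were above all untreated arrays, and their spread was the widest among the RA values of the 10 genes (SD 0.48). The change was 1.32 (SE 0.25, adjusted p = 0.00284 by limma). A second probe shares 54 bases with the first and is no separate measurement (1.34), while the third (A_52_P198473, AK004240, chr19:36535120-36535179), 4437 bases downstream, gave 1.39 (adjusted p = 0.00141 by limma). Within slides 1 and 2 the first probe gave 1.14 (adjusted p = 0.108 by limma) and 1.49 (adjusted p = 0.0374).

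Pcgf3, the paralog of Pcgf5 in the same type of complex, also rose. Its detected probe (A_52_P373846, NM_172716, chr5:108931091-108931150, plus strand) was at -3.98, -3.48, -2.81 and -3.21 in untreated replicates and at -2.11, -2.11, -2.02 and -2.03 after RA. Here the untreated arrays were scattered (SD 0.49) and the RA arrays lay close together (SD 0.05). The change was 1.30 (SE 0.24, adjusted p = 0.00236 by limma), with 1.33 (adjusted p = 0.102) and 1.28 (adjusted p = 0.0313) within slides 1 and 2. The size depends on the background correction, since the change was 0.78 after normexp with the same scaling and 0.95 after normexp with quantile normalization and with the deposited log2 values, and it passed the test in each. The other Pcgf3 probe (A_52_P386682, AK033609, chr5:108917527-108917586), 13504 bases upstream, was not well above background on any array and gives no fold.

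Pcgf6, the subunit of the complex with L3mbtl2 and E2f6, was lower after RA. It was at 3.26, 3.26, 3.02 and 3.48 in untreated replicates and at 2.62, 2.62, 2.47 and 2.58 after RA (A_52_P412321, NM_027654, chr19:47108539-47108598, minus strand). The conditions did not overlap. The difference was -0.68 (SE 0.14, adjusted p = 0.00510 by limma) and -0.40 relative to the median of all probes. The call depends on the scaling, since after quantile normalization the difference was -0.54, with an adjusted p of 0.00183 but a change under 1.5-fold. Within slides 1 and 2 it was -0.54 and -0.82 (adjusted p = 0.243 and 0.108 by limma).

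Pcgf1, the subunit of the Kdm2b and Bcor complex, was at 0.61, 0.54, 0.55 and 0.67 in untreated replicates and at 0.66, 0.51, 0.89 and 0.90 after RA. The lowest of the 8 values was an RA array, and so was the highest. The difference was 0.15 (95% interval -0.18 to 0.47, adjusted p = 0.409 by limma), so a change of 1.5-fold either way lay outside the interval.

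Rybp and Yaf2, which hold the Rybp-type position of variant PRC1, moved in opposite directions. Rybp (NM_019743) was at 5.68, 5.58, 5.20 and 5.26 in untreated replicates and at 3.68, 4.01, 3.97 and 3.75 after RA. The highest RA array was more than 1 log2 unit under the lowest untreated array. The change was -1.58 (SE 0.17, adjusted p = 0.000114 by limma), and within slides 1 and 2 it was -1.73 and -1.43, both called. RefSeq lists a transcribed pseudogene, Rybp-ps, so signal of the single Rybp probe may be shared with it.

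Yaf2 (NM_024189) was at 0.83, 0.84, 1.11 and 0.98 in untreated replicates and at 3.23, 3.15, 3.35 and 3.20 after RA. It was the largest change among the 10 genes, and the replicates of each condition lay close together (SD 0.13 and 0.08). The change was 2.30 (SE 0.13, adjusted p = 6.42e-06 by limma). The second probe, 894 bases downstream, went from -2.28, -2.27, -2.53 and -2.64 to -0.05, -0.29, 0.00 and 0.26, a change of 2.41 or 5.32-fold. Within slides 1 and 2 the brighter probe gave 2.25 and 2.35, both called.

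**Figure D2:**
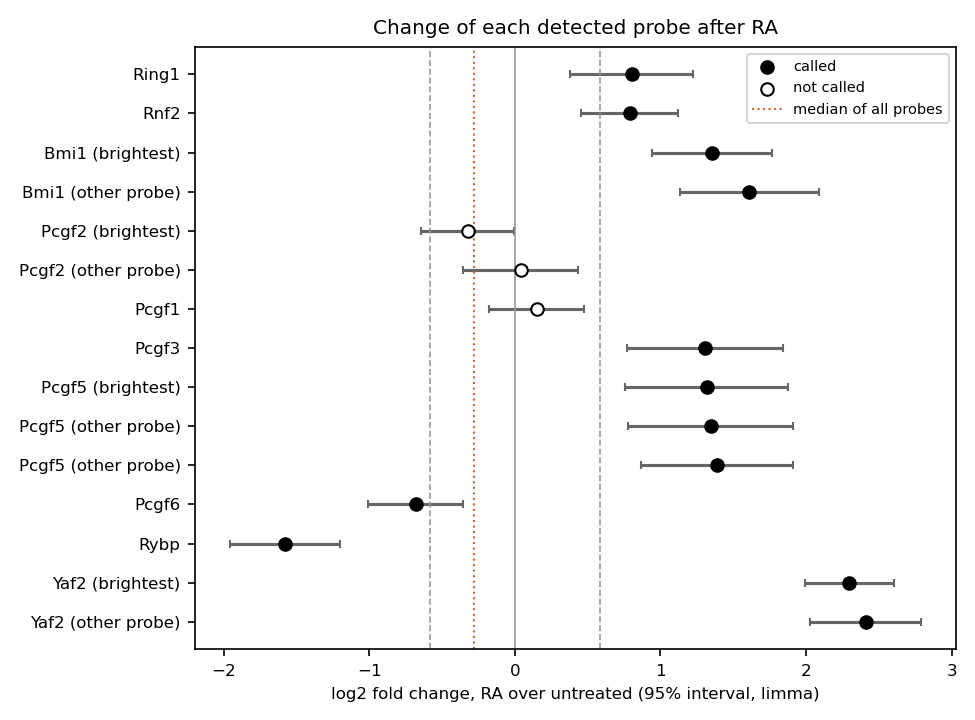
Log2 fold change of RA over untreated cells for the 15 probes detected on all 8 arrays, with 95% intervals of limma (n = 4 and 4). Filled points passed the test and a change of 1.5-fold (dashed lines), open points did not, and the dotted line is the median of all probes, -0.28. Probes of Bmi1, Pcgf5 and Yaf2 lie close to each other, and those of Pcgf2 lie on either side of 0.

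The ratio of the levels of 2 paralogs was compared on each array, which does not depend on a shift of the whole array. In 4 of the 5 pairs the subunits are alternatives in the same type of complex, while Pcgf1 and Pcgf6 belong to different variant complexes. The value is the log2 ratio on an array minus the mean of the untreated arrays, because levels of different probes cannot be set against each other. For 5 pairs an exact two-sided permutation test was made, with p adjusted over the 5 pairs. The smallest p of 4 arrays against 4 is 0.0286, which becomes 0.0476 when 3 of the 5 pairs reach it, as here. This test is unpaired. With same-numbered arrays kept as pairs the smallest exact p is 0.125, so no ratio could pass, and the ratios that reached it (Rybp to Yaf2, Bmi1 to Pcgf2 and Pcgf1 to Pcgf6) moved the same way in 4 of 4 pairs (exact sign-flip permutation test, adjusted p = 0.208).

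The ratio of Rybp to Yaf2 was at 0.36, 0.25, -0.40 and -0.21 in untreated replicates and at -4.04, -3.63, -3.88 and -3.95 after RA. It dropped 14.7-fold (log2 difference -3.88, 95% interval -4.40 to -3.23, exact permutation test, adjusted p = 0.0476), and within slides 1 and 2 the difference was -3.97 and -3.78. The gap between conditions was several times the spread within either. The ratio of Bmi1 to Pcgf2 was at 0.26, 0.03, -0.13 and -0.16 and at 1.82, 1.50, 1.71 and 1.70 after RA. It rose 3.21-fold (log2 difference 1.68, 95% interval 1.24 to 1.98, exact permutation test, adjusted p = 0.0476), with 1.69 and 1.67 within the slides. The ratio of Pcgf1 to Pcgf6 was at 0.01, -0.06, 0.19 and -0.14 and at 0.70, 0.55, 1.08 and 0.99 after RA. It rose 1.78-fold (log2 difference 0.83, 95% interval 0.37 to 1.22, exact permutation test, adjusted p = 0.0476), with 0.74 and 0.92 within the slides.

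The other 2 ratios overlapped between the conditions. The ratio of Ring1 to Rnf2 was at 0.13, 0.18, -0.03 and -0.28 in untreated replicates and at -0.01, -0.17, -0.08 and 0.33 after RA. The difference of 0.02 had a 95% interval of -0.35 to 0.61 (exact permutation test, adjusted p = 0.971). The difference was -0.21 after normexp with the same scaling (adjusted p = 0.171, exact permutation test) and -0.26 after normexp with quantile normalization and with the deposited log2 values (adjusted p = 0.107, exact permutation test), so its sign is not settled. The ratio of Pcgf3 to Pcgf5 was at -0.50, 0.15, 0.36 and -0.00 and at -0.37, -0.51, 0.23 and 0.61. The difference of -0.01 had an interval of -0.86 to 1.10 (exact permutation test, adjusted p = 0.971), which is wide, and these data do not show that both genes changed equally. It was -0.50 after normexp with the same scaling, -0.42 after normexp with quantile normalization and -0.41 with the deposited log2 values, none of which passed, and -0.93 where the dim Pcgf3 probe was averaged in (adjusted p = 0.0357, exact permutation test).

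**Figure D3:**
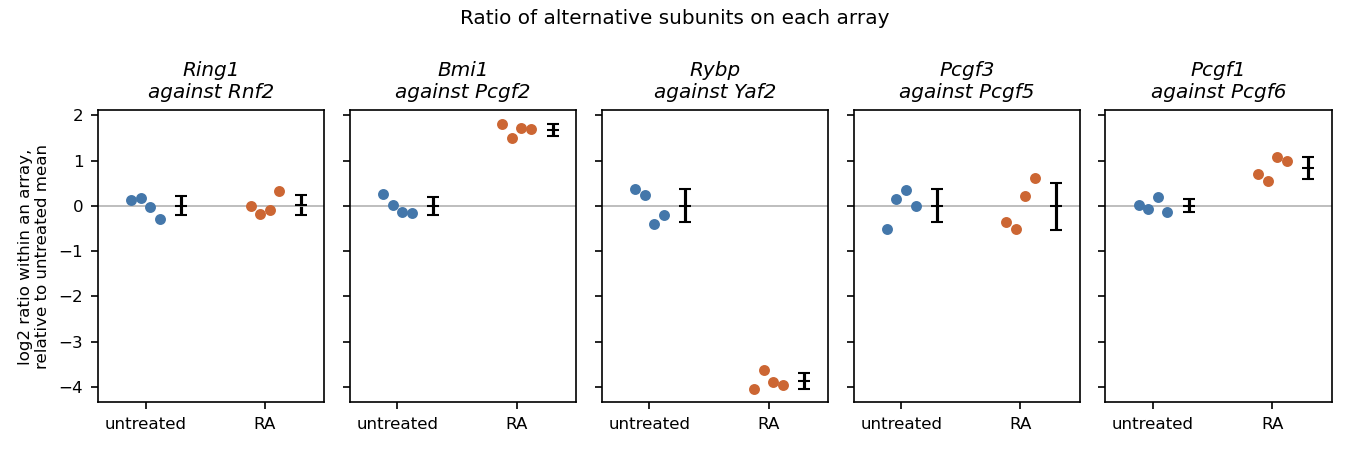
Log2 ratio of 2 paralogous subunits on each array, relative to the mean of the untreated arrays. Points are replicates 1 to 4 from left to right and bars the mean ± SD (n = 4). The ratios of Rybp to Yaf2, Bmi1 to Pcgf2 and Pcgf1 to Pcgf6 separate the conditions, and the other 2 overlap.

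RefSeq promoters (GRCm38.p6, from 250 bases before to 50 after a start) were at hand for 7 of the 10 genes, with 9 starts, and not for Pcgf1, Rybp and Yaf2. Their GC content was between 48.3% and 78.7%, against a median of 52.7% over 32851 promoters. The letters AGGTCA, the half-site that RA receptors and other nuclear receptors read, were searched on both strands and found in 1 of the 9 promoters, against 16.3% of all. The E-box CACGTG, a palindrome bound by Max with Myc or Mga and by other factors, was found in 2 of the 9, against 7.15% of all. This motif contains a CpG, and the 9 promoters held between 5 and 37 CpG each, against a median of 7 over all. The share over all promoters is thus not a like comparison, and an excess was not tested. The paired half-sites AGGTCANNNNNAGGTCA and AGGTCANNAGGTCA were in none of the 9 and in 3 promoters each of all. The promoters of Bmi1 (chr2:18676768-18677067, plus strand) and Pcgf2 (chr11:97699599-97699898, minus strand) are shown because they are the 2 with matches, in the pair of canonical Pcgf genes whose ratio shifted. Capitals mark CACGTG, and in Pcgf2 they run over AGGTCA and CACGTG, which overlap there. A match is a description of the sequence, and binding at these sites was not measured here.

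Bmi1 promoter: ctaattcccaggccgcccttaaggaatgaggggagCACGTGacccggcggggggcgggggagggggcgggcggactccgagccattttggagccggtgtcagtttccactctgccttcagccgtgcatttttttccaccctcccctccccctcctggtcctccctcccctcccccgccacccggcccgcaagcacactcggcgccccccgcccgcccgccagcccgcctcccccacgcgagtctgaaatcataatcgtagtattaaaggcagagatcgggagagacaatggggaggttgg
Pcgf2 promoter: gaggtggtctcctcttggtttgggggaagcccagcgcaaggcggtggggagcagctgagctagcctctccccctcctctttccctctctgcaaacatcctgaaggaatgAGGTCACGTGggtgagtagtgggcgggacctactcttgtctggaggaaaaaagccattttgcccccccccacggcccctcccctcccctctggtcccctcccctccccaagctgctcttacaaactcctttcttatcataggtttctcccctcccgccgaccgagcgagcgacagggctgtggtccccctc

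The genes that complete the complexes were taken from lists of partners. Of 9 partners of canonical PRC1, 5 were called higher, 2 lower and 2 were not called, with a median log2 fold change of 0.67, where 18.1% of the genes detected on all 8 arrays were called higher and 27.5% lower. Of these 9, 2 were not detected on all arrays. Cbx8, one of the 5 higher calls, was detected only after RA. Cbx7, one of the 2 not called, was detected on 1 of the 4 RA arrays and on no untreated array, so its change was not measured. The study describes Cbx7 as the main Cbx protein of self-renewing ES cells and detected it there. The low signal of this probe is therefore not read as absence of Cbx7 RNA from untreated cells. The 3 with the largest changes were the chromobox gene Cbx8, which was not well above background on any untreated array and was at least 6.42-fold higher after RA, and the polyhomeotic genes Phc2, with 2.76 (SE 0.19, adjusted p = 1.46e-05 by limma), and Phc1, with -2.70 (SE 0.22, adjusted p = 2.71e-05 by limma). Phc1 and Phc2 encode alternatives for the same position and went in opposite directions. Phc2 was between 2.10 and 2.93 on untreated arrays and between 5.19 and 5.43 on RA arrays. Phc1 was between 3.98 and 4.90 and between 1.66 and 2.07, so neither overlapped between the conditions.

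Of 21 partners of variant PRC1, 2 were called higher, 6 lower and 13 were not called. With this scaling the lower calls were close to the share over all detected genes (27.5%) and the higher calls were not above it (18.1%). These partners had a median log2 fold change of -0.23, close to the median of probes detected on all arrays (-0.23). The 3 largest changes were all in partners of Pcgf6. The methyl-lysine reader L3mbtl2 fell by 1.55 on the log2 scale (SE 0.21, adjusted p = 0.000422 by limma) and the Max partner Mga fell by 1.22 (SE 0.18, adjusted p = 0.000722 by limma). E2f6, the E2F-type repressor of the same complex, rose by 1.02 (SE 0.14, adjusted p = 0.000487 by limma). The number of variant partners called higher depends on the processing. It was 4 after quantile normalization, where 20.0% of the detected genes were called higher, and 3 after normexp with the same scaling. After normexp with quantile normalization and with the deposited log2 values it was 5, and no share over all genes is given for these.

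Of 5 genes of the removal of ubiquitin from H2A, none was called higher, 2 were called lower and 3 were not called, with a median of -0.56. Among all detected genes 18.1% were called higher and 27.5% lower, and 5 genes are too few to tell these counts apart from those shares. At an unadjusted p under 0.05 none of the 5 was higher, and under the other normalizations the count of higher calls was 0 too. Asxl1, the partner of the deubiquitinase Bap1, fell by 1.36 (SE 0.19, adjusted p = 0.000509 by limma) and the deubiquitinase Usp16 fell by 0.82 (SE 0.14, adjusted p = 0.00190 by limma). Asxl2 was at -0.56 (SE 0.18, adjusted p = 0.0361 by limma), under the 1.5-fold threshold.

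**Figure D4:**
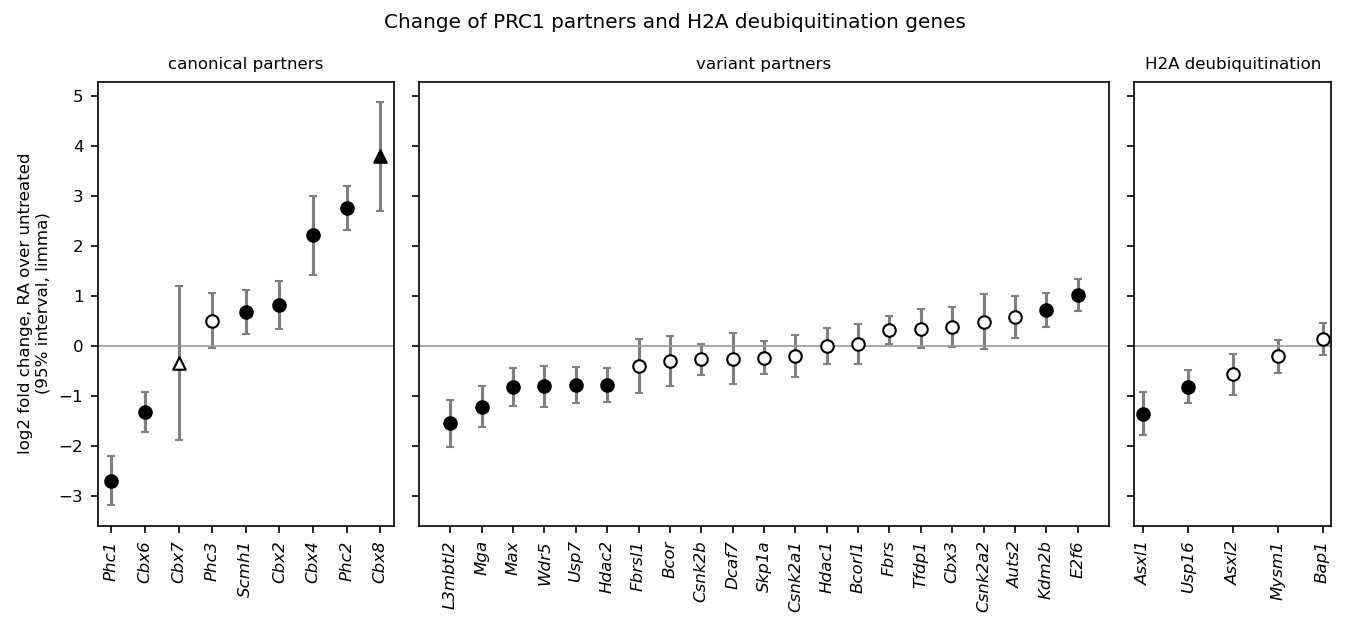
Log2 fold change of RA over untreated cells with 95% intervals of limma for 9 partners of canonical PRC1, 21 of variant PRC1 and 5 genes of H2A deubiquitination, each sorted by its change. Filled symbols were called and open ones were not, and triangles mark genes not well above background on any untreated array, whose fold is not measured. Canonical partners reach both the highest and the lowest values, and 13 of the 21 variant partners were not called.

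**Figure D5:**
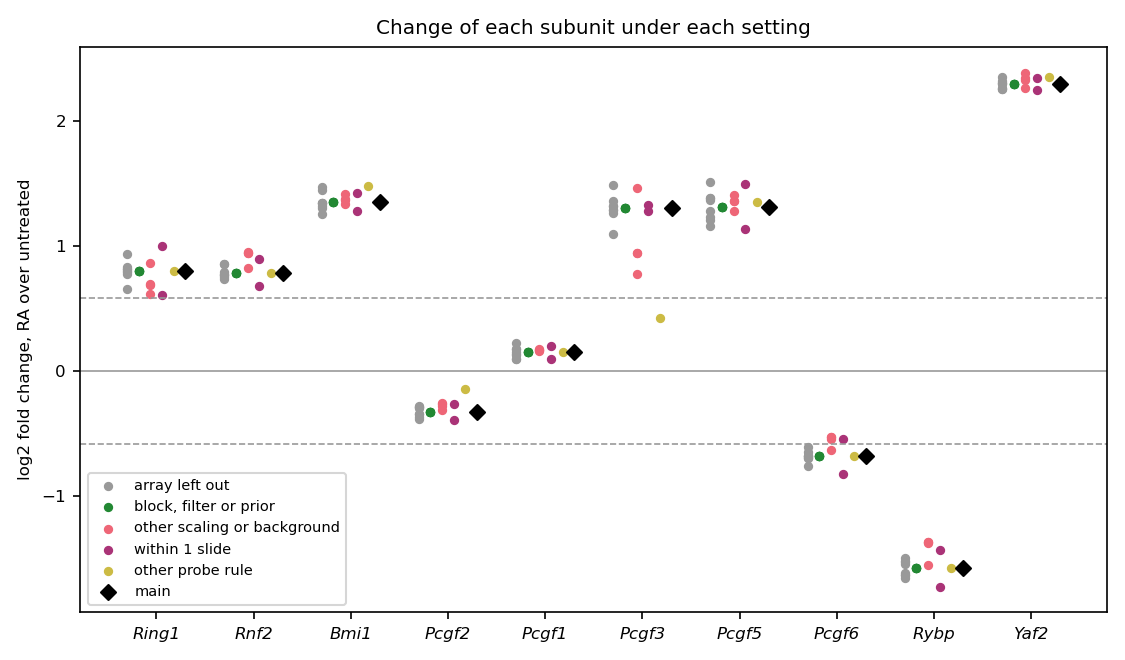
Log2 fold change of each of the 10 genes under the settings tried, with the 1.5-fold threshold dashed. Diamonds are the values of the report, and circles are other settings, named by colour. No gene changed sign, Pcgf6 moved across the threshold, and Pcgf3 did so where its dim probe was averaged in.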

How the data were processed

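RNA of 4 untreated and 4 RA-treated cultures of E14Tg2A.4 cells was measured on 8 arrays, grouped by the sample labels, and no array was left out. The authors deposited what Agilent Feature Extraction (10.7.3.1, mm9) wrote for each array, with a background-corrected, detrended intensity for each spot that was not normalized between arrays, raw spot and background intensities, and flags. They also deposited a table of log2 values with the same distribution on every array, whose normalization is not given in the sources used here. The thresholds of the study's methods were used (FDR 0.05, change over 1.5-fold).

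The log2 of the processed intensity minus the 75th percentile of the array was taken without the 3671 control spots and spots flagged as outliers, with the mean taken where a probe had several spots. Scaling to a percentile assumes that most transcripts keep their level, so a change is relative to the array. Conditions were compared with limma 3.58.1 in R 4.3.3, with Benjamini-Hochberg adjustment over all 55681 probes and no filter. Each gene is represented by the probe that was brightest on average over both conditions. Intervals of ratios (95%) invert the exact permutation test. A gene not well above background in a condition has only a bound there, which sets the higher of its own signal and the lowest signal well above background on each array against the other condition. The number of arrays limits the precision.

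All members and their probes are named, and of each partner list the 3 genes with the largest absolute change that were well above background on all arrays of a condition. Asxl2 is such a gene although it was not called. The markers named and the 2 promoters shown were picked for the text after their values were seen. The members and lists were chosen with earlier results of these data known.

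Deviations of same-numbered arrays from their condition mean correlated at 0.186, 0.189, 0.104 and 0.151 over 27493 detected probes, and arrays of different numbers at up to 0.142, above the lowest of them. All 4 were positive, and the shared numbers were read as a weak pairing. The 2 arrays of replicate 1 shared a slide, as did those of replicate 2, while those of replicates 3 and 4 did not. Pairing and slide are therefore not fully told apart by these correlations. The limma values and ratio tests given are unpaired, and the replicate number as a block is an alternative. The steps were tested on simulated data. Alternatives were quantile normalization, normexp with offset 50, the deposited log2 values, a filter on dim probes, the mean of a gene's probes, a trended variance prior, the replicate number and the slide as blocks, each slide alone, each array left out, a 2-fold or no fold threshold, and limma's treat. The RNA quality of the samples was not given in the sources used here.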

Additional observations from a re-analysis of the deposited data

How the results depend on the processing

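No member changed sign under any alternative. The count of members called higher was 2 within slide 1, with 2 arrays against 2, 4 within slide 2, at a 2-fold threshold and with treat, 5 with the mean of all probes, and 6 in all other settings. The count called lower went from 2 to 1 after quantile normalization, after normexp with quantile normalization, with the deposited log2 values, within slide 1, within slide 2, at a 2-fold threshold and with treat, and the gene lost was Pcgf6 each time. With the replicate block the counts were 6 and 2, and the block changed no call of a member. For the ratios, pairing by replicate number left the differences at -3.88 (Rybp to Yaf2), 1.68 (Bmi1 to Pcgf2) and 0.83 (Pcgf1 to Pcgf6), with an adjusted p of 0.208 by an exact sign-flip permutation test whose smallest p is 0.125, a design too small to pass. Leaving out each array in turn gave 6 higher and 2 lower every time. Averaging all probes of a gene put the dim Pcgf3 probe into its value, which gave 0.43 for Pcgf3 and moved the ratio of Pcgf3 to Pcgf5 to -0.93 (exact permutation test, adjusted p = 0.0357). Of the variant partners, 4 were called higher after quantile normalization, 5 after normexp with quantile normalization and 5 with the deposited log2 values. The alternatives for the partner lists, the replicate and slide blocks together, and the pairing of the ratios were added once values were known. Genes near background, such as Cbx8 in untreated cells and the second Pcgf3 probe, are limited by the signal over background.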
